A study of Homo sapiens with 32 samples.

Results

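The change in gene expression between 2 h and 6 h of treatment was measured by RNA-seq of total RNA in RH4, an established human alveolar rhabdomyosarcoma cell line, under the compounds dCBP and IHK-44. Each compound was given at 100 nM and at 1000 nM (1 uM), so 4 libraries of 6 h were set against the 4 libraries of 2 h of the same compound and dose. These are 8 of the 20 RNA-seq libraries and of the 32 samples of the series. The culture-time background came from 4 further libraries taken at 2 h and 6 h, 2 of the solvent DMSO and 2 labelled NT, an abbreviation left unexplained. The series describes its compounds as inhibitors or degraders of CBP and p300, and the labels do not say which compound is which. All libraries came from 1 cell line and every condition had 1 library. The 4 compound-and-dose pairs therefore stood in for replicates, and the p-values measure the spread between these pairs. In bulk RNA, fewer cells of a kind and less RNA per cell cannot be told apart.

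CBP (CREBBP) and p300 (EP300) are related lysine acetyltransferases that bind transcription factors and acetylate histones at enhancers and promoters, where they act as coactivators. Alveolar rhabdomyosarcoma is a muscle-lineage tumour. Its fusion-positive form is driven by PAX3-FOXO1, which acts with MYOD1, MYOG, MYCN and SOX8 in a self-reinforcing circuit of transcription factors held at high level by large enhancers.

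Coding genes received between 13466631 and 16799327 expected counts in the 12 libraries, and 13125 of 18980 listed genes were tested. Levels are given in CPM, each library's expected counts brought to a fixed sum over its coding genes, as deposited. The values of the 4 treated libraries always follow the order dCBP 100 nM, dCBP 1 uM, IHK-44 100 nM, IHK-44 1 uM. A fitted change is the log2 difference of 6 h minus 2 h in edgeR's quasi-likelihood test, with its standard error (SE) and its Benjamini-Hochberg adjusted p over all genes tested. A gene is called at an adjusted p under 0.05, and a log2 value of -1 is a 2-fold fall. Of 10 markers of this tumour none was at 0 in any library, but CDH3 stood at only 0.180 to 1.86 CPM. The 10 markers summed to 2398 to 2588 CPM in the controls, 1795 to 1928 CPM in the treated libraries at 2 h and 981 to 1376 CPM at 6 h. EPCAM, KRT5, KRT14 and KRT19 (epithelial) were at 0 in all 12 libraries, PTPRC (leukocyte) was at 0 in 11, and the 5 endothelial markers summed to 0.442 to 1.98 CPM. Of the fibroblast markers, COL3A1 stood at 2179 to 2742 CPM in all 12 libraries, with LUM at no more than 0.222 CPM.

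The pair at 100 nM dCBP stood apart from the other treated pairs. Over 9608 genes with a mean of at least 10 CPM, its 6 h minus 2 h differences had r = 0.635, 0.685 and 0.726 with those of the other 3 treated pairs, which had r = 0.875 to 0.912 among themselves. These correlations run across genes of single library pairs, so genes are not independent replicates. Its differences also ran against transcript length (r = -0.296), where the other treated pairs gave -0.0529 to 0.0332, DMSO 0.148 and NT -0.152. Its 6 h library held 11.3% of its reads outside the coding genes, the highest share of the 12. The part of these features in the results was not tested.

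Between 2 h and 6 h the treated cells changed expression of 5264 genes, 40.1% of those tested. Expression fell for 2714 genes (20.7%) and rose for 2550 (19.4%). Changes of at least 2-fold were mostly falls, with 852 genes lower (6.49%) and 322 higher (2.45%). Scaling by library size alone moved the median of all genes from -0.0015 to 0.095 on the log2 scale. It gave 2159 lower and 3644 higher, so the share of called genes that rose went from 48.4% to 62.8%. On CPM without that scaling, all 4 libraries of 6 h lay below all 4 of 2 h for 2020 genes (15.4%) and above them for 3396 (25.9%). Without the 100 nM dCBP pair, 6844 genes were called (52.4%), 3451 of them lower (26.4%) and 3393 higher (26.0%), and the 2-fold counts were 852 lower (6.53%) and 324 higher (2.48%). The culture-time background rests on 2 pairs, against 4 treated ones, so its count is not on an equal footing. In DMSO and NT, 1 gene was called (0.00762%) in the same fit, 877 genes had an unadjusted p under 0.05, and DESeq2 called 11 (0.0838%). The control count was 170 (78 lower and 92 higher) without the 100 nM dCBP pair, 0 without the DMSO, the NT or the 1 uM dCBP pair, and 224 with the 2 JQAD pairs added to the background.

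**Figure D1:**
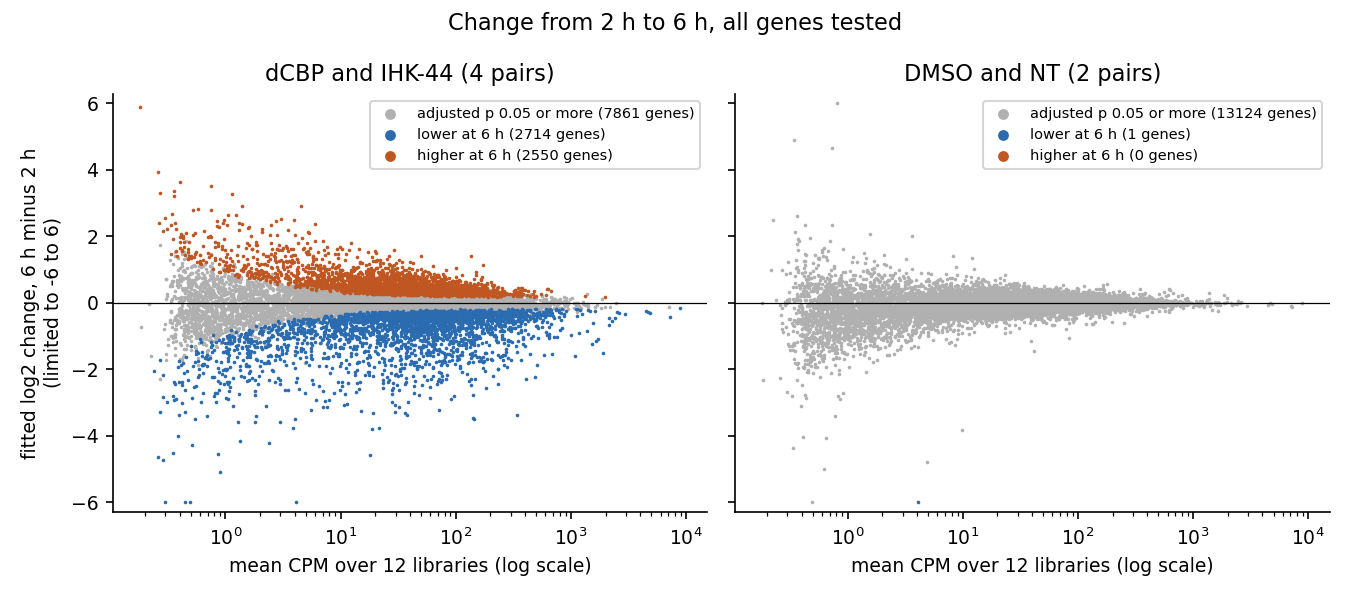
Each point is 1 of 13125 genes, with its mean CPM over the 12 libraries on a log axis and its fitted log2 change from 2 h to 6 h on the other. Under dCBP and IHK-44 (left) 2714 genes were called lower (blue) and 2550 higher (orange), and falls reach further from 0 than rises among well-expressed genes; in DMSO and NT (right) 1 gene was called.

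The single control call, H2AC19, is a histone gene with near-identical copies, so its counts are uncertain. It had 15.5 and 16.4 CPM in DMSO and NT at 2 h and 0 in both at 6 h, and 0 in 7 of the 8 treated libraries. It was also called lower in the treated pairs, a call that rests on the only treated library above 0. No fold change is given for it. It was picked out after its values were seen.

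The treated change differed from that of DMSO and NT for 1374 genes in a direct test of the difference (10.5%). Relative to the controls, 1013 of these fell (7.72%) and 361 rose (2.75%). This test rests on 2 control pairs. It called 431 genes without the DMSO pair and 391 without the NT pair, 872 without the 1 uM IHK-44 pair, and 3468 (26.6%) without the 100 nM dCBP pair, 1991 of them lower (15.3%) and 1477 higher (11.3%). By library size alone it called 838 lower and 628 higher, with the median of all genes moved from 0.013 to 0.108. Over the 2714 genes called lower, the median difference of 6 h minus 2 h on the log2(CPM + 1) scale was -0.55, -0.48, -0.49 and -0.52 in the treated pairs, against -0.06 in DMSO and -0.05 in NT. Over the 2550 called higher it was 0.58, 0.58, 0.53 and 0.58, against 0.12 and 0.09. The treated medians describe genes that these libraries selected.

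Genes called under one compound mostly changed the same way under the other. The pairs of the 2 compounds share no library, although the fit estimated their spread together with that of DMSO and NT. The dCBP pairs called 1821 genes lower (13.9%) and 1392 higher (10.6%), and the IHK-44 pairs 1831 lower (14%) and 1379 higher (10.5%). Of the genes lower under dCBP, 96.3% had a fitted fall under IHK-44, against 49.0% of all genes tested, and 1367 were called there too. Those 1367 genes are 75.1% of the dCBP list and 74.7% of the IHK-44 list. Of the genes higher under dCBP, 99.1% had a fitted rise under IHK-44, against 51.0% of all genes tested, and 877 were called in both, which is 63.0% of the dCBP list and 63.6% of the IHK-44 list. In opposite directions 7 genes were called. These lists depend on the pairs fitted, and the overlap was counted only with all pairs in the fit. The IHK-44 count of 3210 became 6184 (3097 lower and 3087 higher) without the 100 nM dCBP pair and 6186 without the 1 uM dCBP pair, and 951 and 1094 without the 1 uM and the 100 nM IHK-44 pair. The dCBP count of 3213 became 4478 without the 100 nM and 6081 without the 1 uM dCBP pair.

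**Figure D2:**
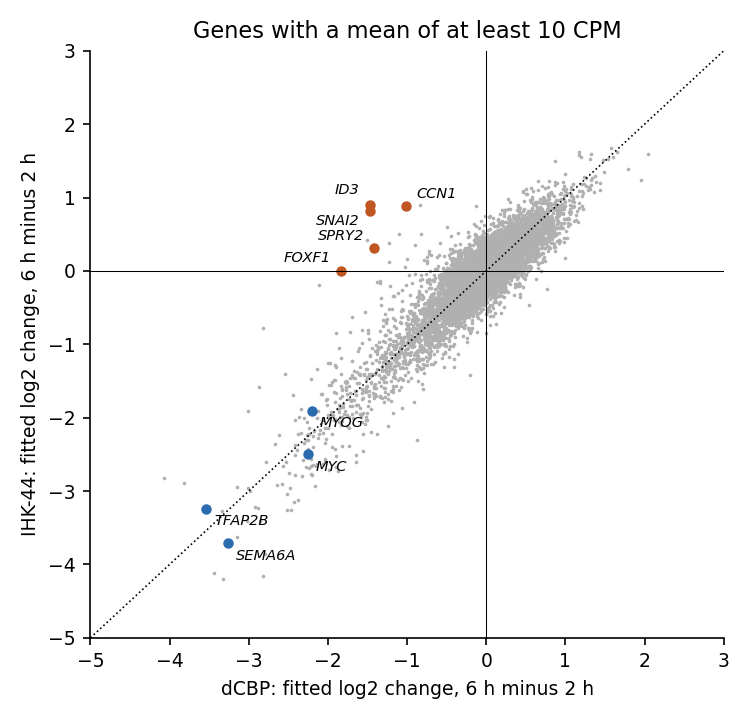
Each point is a gene with a mean of at least 10 CPM, with its fitted log2 change from 2 h to 6 h under dCBP and under IHK-44; the dotted line marks equal change. Most genes lie along the line, MYC, MYOG, TFAP2B and SEMA6A (blue) fell under both, and ID3, SNAI2, CCN1, FOXF1 and SPRY2 (orange) lie above it.

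Genes that fell after 2 h were more often already below the controls at 2 h than all genes, but most were still near them, as all genes were. Levels were read in the compound that did not select the genes, against the mean of DMSO and NT of the same time, with 1.5-fold as the limit. Of the 1821 genes that fell under dCBP, 278 (15.3%) were already lower than controls in the IHK-44 libraries at 2 h, 1524 (83.7%) were near them and 19 were higher. At 6 h, 1090 were lower. Of the 1831 that fell under IHK-44, 258 (14.1%) were lower in the dCBP libraries at 2 h and 1077 at 6 h. Over all genes tested, 476 (3.63%) were lower at 2 h and 1435 at 6 h in IHK-44, and 462 (3.52%) and 1425 in dCBP. Of the 1392 genes that rose under dCBP, 99 (7.11%) were higher than controls in the IHK-44 libraries at 2 h, 1291 (92.7%) were near them, and 914 were higher at 6 h. Over all genes tested, 410 (3.12%) were higher at 2 h, 12239 (93.2%) were near the controls, and 2239 were higher at 6 h, so the share near the controls at 2 h was that of all genes. These ratios use CPM, on which the median of all genes in the treated libraries stood at 0.06 log2 units at 2 h and 0.20 at 6 h. The 2 selections share the control libraries.

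The largest falls were MEOX1, RIPOR2, KLHL30, SEMA6A, MN1, IRS1, TFAP2B, IL1RAPL2, SYNPO2L, C10orf71, PALMD and CAVIN2, with fitted log2 changes from -4.56 to -3.23. In each of these 12 genes the 6 h libraries lay below all the 2 h libraries, and the fall also differed from that in DMSO and NT. The falls here and the rises below were picked from these libraries for their size, which largely sets this separation in advance. Over all genes the times were apart downward for 15.4% and upward for 25.9%. The change differed from the controls downward for 7.72% and upward for 2.75%. The largest rises were smaller and began from low levels. They were RIMKLA, NIPAL3, REEP2, SLC1A1, SLAIN1, GCH1, ANKRD44, PPP1R13B, RAB3B, DRP2, SLC25A42 and RALGPS1, from 2.37 to 1.63, with the times again apart in all 12. For 10 of these 12 the rise differed from that in the controls. The exceptions were RIMKLA (adjusted p = 0.0561 for the difference) and GCH1 (0.109), which had a fitted log2 change of 1.02 in the controls.

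**Figure D3:**
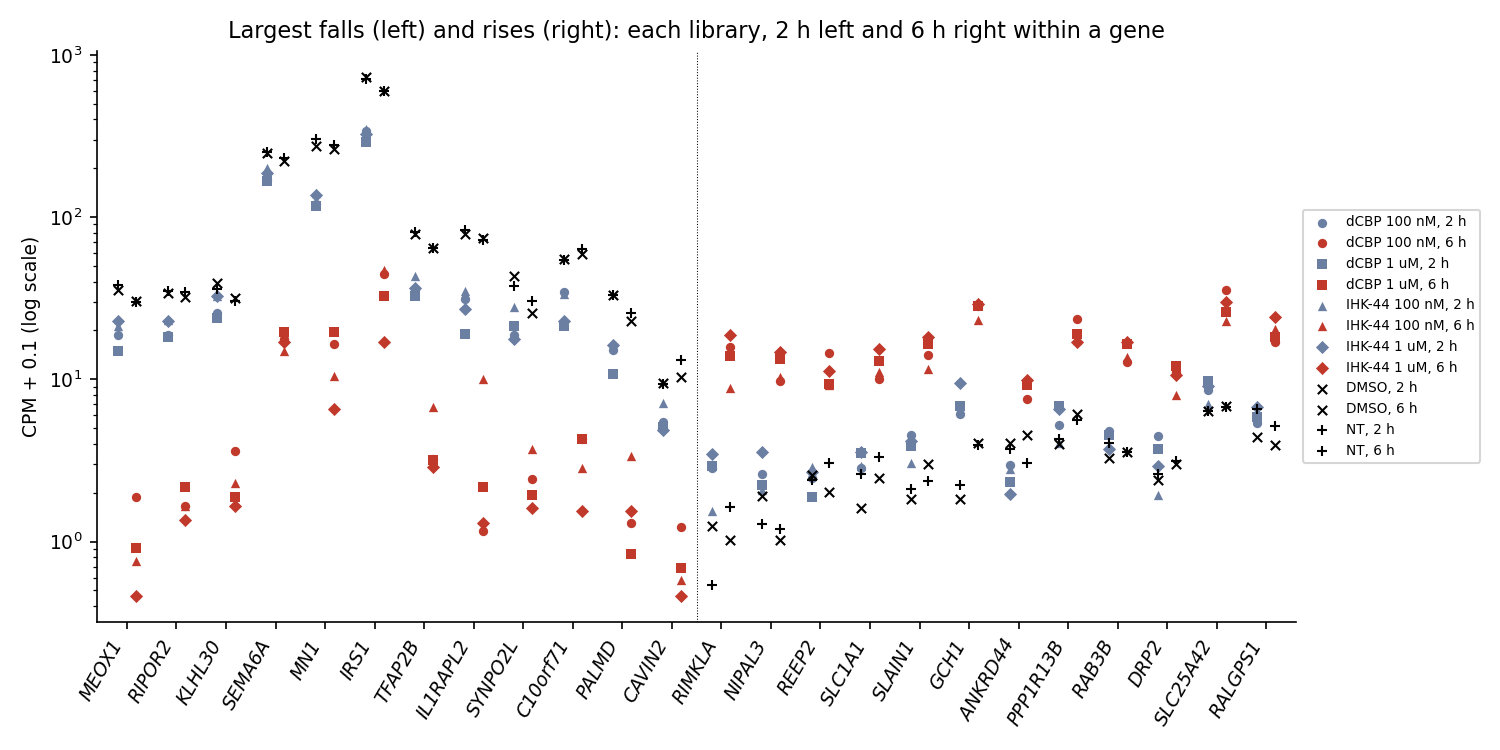
CPM + 0.1 on a log axis for the 12 largest falls (left) and 12 largest rises (right), 1 symbol per library, with 2 h at the left and 6 h at the right of each gene; blue is treated at 2 h, red treated at 6 h and black DMSO and NT. Every red symbol lies below the blue ones of its gene on the left side and above them on the right; MEOX1 goes from 14.8 to 22.7 CPM at 2 h to 0.361 to 1.77 CPM at 6 h.

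The sequence before the start site is shown for the 2 largest falls and the 2 largest rises whose promoter in the RefSeq table (GRCh38.p14) begins at the edge of the annotated gene. Each line holds the 250 bases upstream of the start, 5' to 3' on the gene's strand, with every CpG dinucleotide in capitals. KLHL30 (chr2:238138418-238138667, plus strand) and IRS1 (chr2:226799821-226800070, minus strand) fell, and RIMKLA (chr1:42380542-42380791, plus strand) and REEP2 (chr5:138438807-138439056, plus strand) rose. They are examples of the CpG content described after them, which does not sort these single genes into falls and rises. KLHL30 has 6 CpG in its 250 bases, but IRS1 has 39, RIMKLA 37 and REEP2 25.
KLHL30: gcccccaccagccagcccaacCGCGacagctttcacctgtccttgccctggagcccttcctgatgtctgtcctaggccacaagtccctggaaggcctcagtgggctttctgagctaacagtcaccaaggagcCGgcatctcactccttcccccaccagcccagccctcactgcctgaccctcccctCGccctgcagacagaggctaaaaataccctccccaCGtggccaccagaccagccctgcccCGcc
IRS1: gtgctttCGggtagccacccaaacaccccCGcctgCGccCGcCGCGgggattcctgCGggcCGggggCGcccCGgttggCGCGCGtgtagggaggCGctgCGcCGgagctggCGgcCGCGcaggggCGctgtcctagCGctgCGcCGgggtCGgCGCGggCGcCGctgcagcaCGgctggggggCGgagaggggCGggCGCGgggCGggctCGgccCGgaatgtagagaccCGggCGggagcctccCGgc
RIMKLA: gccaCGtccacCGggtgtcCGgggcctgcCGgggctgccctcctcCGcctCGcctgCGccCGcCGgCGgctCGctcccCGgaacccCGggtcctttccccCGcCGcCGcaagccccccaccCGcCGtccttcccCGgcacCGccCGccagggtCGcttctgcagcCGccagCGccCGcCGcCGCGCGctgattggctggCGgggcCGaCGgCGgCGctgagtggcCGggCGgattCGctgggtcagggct
REEP2: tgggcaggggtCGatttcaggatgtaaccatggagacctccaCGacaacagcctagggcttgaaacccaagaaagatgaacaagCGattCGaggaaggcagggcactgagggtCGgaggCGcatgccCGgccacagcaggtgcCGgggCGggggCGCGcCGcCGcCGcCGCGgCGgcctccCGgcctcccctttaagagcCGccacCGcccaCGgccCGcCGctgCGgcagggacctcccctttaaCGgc

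Genes that fell more often had a CpG-poor promoter than genes that rose. A RefSeq promoter of 300 bases (250 upstream and 50 downstream of the start) was matched for 80.3% of the genes that fell, 83.5% of those that rose and 82.1% of all tested. Fewer than 10 CpG were present in 19.2% of the promoters of genes that fell, 8.08% of those that rose and 12.4% of all. The median was 25 CpG for genes that fell, 27 for those that rose and 26 for all. The letters TATAAA, on either strand, were present in 8.63% of promoters of genes that fell, 4.08% of those that rose and 5.99% of all. The letters TGACGTCA, on either strand, were present in 3.03%, 3.71% and 3.24%. For genes that fell at least 2-fold only 77.5% had a match, so no share is given for them. The genes that fell also spanned more genome, with a median of 48.3 kb against 38.1 kb for those that rose and 32.2 kb for all. These are descriptions of letters in a window, with no test.

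SEMA6A, a membrane-bound semaphorin, stood at 168, 166, 202 and 186 CPM at 2 h and at 17.6, 19.4, 14.8 and 16.8 CPM at 6 h. DMSO and NT had 250 and 251 CPM at 2 h and 222 and 231 CPM at 6 h. The 4 pairs fell to nearly the same level, and the fitted change was -3.49 (SE 0.11, adjusted p = 8.76e-08). IRS1, the adaptor that links insulin and IGF receptors to PI3K signalling, went from 341, 291, 347 and 324 CPM to 44.4, 32.3, 47.4 and 17 CPM, against 733 and 708 CPM, then 600 and 602 CPM, in DMSO and NT. It was already below the controls at 2 h in all 4 libraries, and it fell by 3.38 on the log2 scale between the times (SE 0.20, adjusted p = 8.09e-07). MEOX1, a homeobox factor of the somites, had 18.6, 14.8, 21.3 and 22.7 CPM at 2 h and 1.77, 0.811, 0.655 and 0.361 CPM at 6 h, with 35.2 and 37.8 CPM, then 30.3 and 30.1 CPM, in the controls. Its fitted change was -4.56 (SE 0.28, adjusted p = 1.04e-06). KLHL30, a kelch-family gene, stood near the controls at 2 h (25.7, 23.7, 32.4 and 32.5 CPM, with 39.1 and 35.8 CPM in DMSO and NT) and at 3.54, 1.77, 2.20 and 1.56 CPM at 6 h. Its mean log2 ratio to the controls was -0.39 at 2 h and -3.32 at 6 h.

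Among the rises, RIMKLA, which encodes a ligase that makes the neuropeptide N-acetylaspartylglutamate, went from 2.72, 2.81, 1.45 and 3.34 CPM to 15.6, 13.9, 8.75 and 18.6 CPM. DMSO and NT held 1.14 and 0.437 CPM at 2 h and 0.926 and 1.54 CPM at 6 h. The fitted change was 2.37 (SE 0.21, adjusted p = 1.08e-05). REEP2, a protein that shapes the endoplasmic reticulum, was at the control level at 2 h, with 2.36, 1.77, 2.77 and 2.60 CPM against 2.46 and 2.31 CPM, and reached 14.5, 9.29, 9.17 and 11.1 CPM at 6 h. The rise was 2.10 (SE 0.19, adjusted p = 1.63e-05) and differed from the controls (adjusted p = 0.00454), a call lost without the DMSO pair. SLC25A42, a mitochondrial carrier of coenzyme A, stood at 8.47, 9.68, 6.98 and 8.99 CPM at 2 h and 35.5, 26.0, 22.7 and 29.8 CPM at 6 h, with 6.25 to 6.75 CPM in the controls. PPP1R13B, which encodes the p53-binding protein ASPP1, rose by 1.69 (SE 0.16, adjusted p = 2.16e-05).

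Gene lists were read by counts, against 20.7% lower and 19.4% higher among all genes tested and a median fitted change of -0.0015 over all genes. For counts against the controls, the shares over all genes were 7.72% lower and 2.75% higher. Between the times they were 26.4% and 26.0% without the 100 nM dCBP pair. By library size alone, 2159 of 13125 genes were lower and 3644 higher. The list of myogenic core factors, the transcription factors of the muscle and tumour circuit, lay far from these shares. Of its 15 tested members 13 fell and 0 rose, with a median of -1.49, and 10 of them also fell against the controls. The members that were not called were MEF2A (0.11) and MEF2D (-0.04). Of 21 listed PAX3-FOXO1 targets, 17 fell and 1 rose, with a median of -1.07, and 14 fell against the controls. The 1 rise was CDH3, at 0.295 to 0.520 CPM at 2 h and 1.11 to 1.86 CPM at 6 h. Without the 100 nM dCBP pair, 12 core factors fell, SIX4 was not called (adjusted p = 0.106) and MEF2A rose by 0.28 (SE 0.07, adjusted p = 0.00348). In that fit 17 targets fell and 1 rose.

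**Figure D4:**
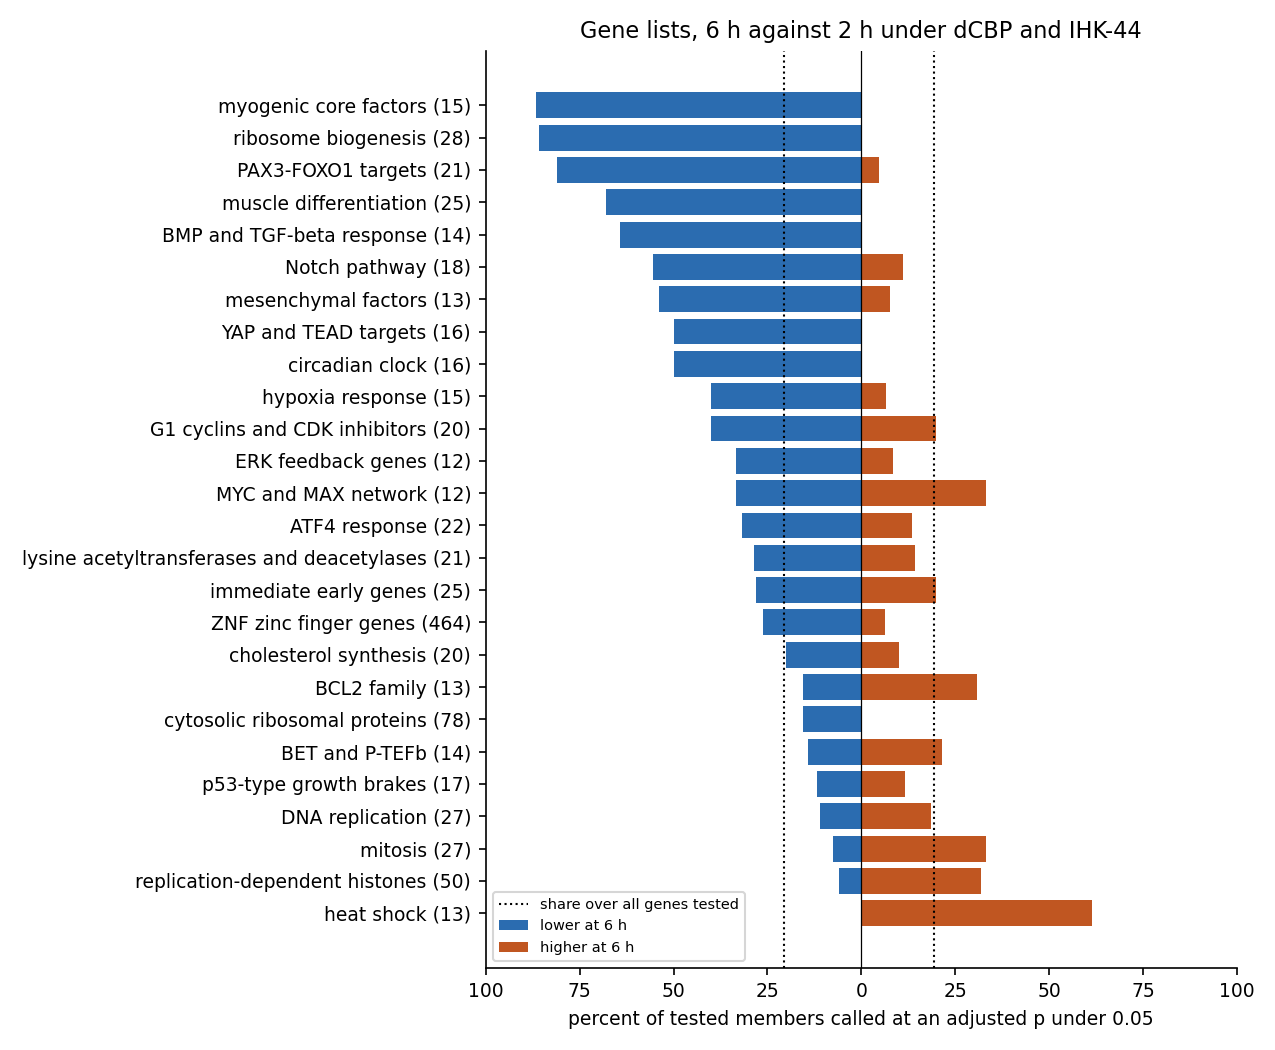
For each gene list (number of tested members in brackets), the percent of members called lower (blue, left) or higher (orange, right) at 6 h against 2 h under dCBP and IHK-44; dotted lines mark the shares over all genes tested, 20.7% and 19.4%. Myogenic core factors, ribosome biogenesis and PAX3-FOXO1 targets have the largest shares of falls among these lists, and heat shock the largest share of rises over the 4 pairs; without the 100 nM dCBP pair mitosis (17 of 27) passed heat shock (8 of 13).

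MYOG, the myogenic factor of terminal differentiation, stood at 186, 189, 211 and 200 CPM at 2 h and at 54.5, 34.2, 111 and 29.8 CPM at 6 h, while DMSO and NT stayed between 264 and 300.1 CPM. All the 6 h libraries were below the 2 h ones, with 100 nM IHK-44 the highest of them. The fall was -2.06 (SE 0.24, adjusted p = 8.74e-05). SOX8, an SRY-box factor of the same circuit, had 501, 529, 487 and 452 CPM, then 126, 116, 246 and 43.6 CPM, with 809 to 869.9 CPM in the controls, and fell by 2.21 (SE 0.28, adjusted p = 0.000165). For MYOG and SOX8 the difference from the controls was called (adjusted p = 0.00599 and 0.0128), but not when either control pair was left out. MYOD1, the muscle master regulator, went from 291, 309, 288 and 203 CPM to 136, 101, 270 and 27.2 CPM. At 100 nM IHK-44 it thus stayed within the range of the 2 h libraries, and at 1 uM it was the lowest. Its fitted change was -1.49 (SE 0.33, adjusted p = 0.00504), and its difference from the controls was not called (adjusted p = 0.0703), except in 6 of the alternative fits, 1 of them without the 100 nM dCBP pair.

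PAX3 and FOXO1 are the genes joined in the fusion, and gene counts do not separate the fusion from the intact copies. PAX3 had 52.4, 46.9, 54.0 and 50.1 CPM at 2 h and 24.2, 26.0, 46.9 and 27.6 CPM at 6 h, with 72.6 to 78.0 CPM in the controls. FOXO1 had 112, 73.5, 98.1 and 91.7 CPM, then 21.2, 28.5, 73.9 and 23.5 CPM, with 169 to 186 CPM in the controls. In both genes 100 nM IHK-44 kept the highest 6 h level. The falls were -0.84 (SE 0.13, adjusted p = 0.000566) and -1.61 (SE 0.25, adjusted p = 0.000568). Both differed from the controls (adjusted p = 0.0320 and 0.0270), but either call was lost without the DMSO, NT, 1 uM dCBP or 1 uM IHK-44 pair. TFAP2B, a direct fusion target and diagnostic marker, fell further, from 35.6, 32.4, 43.0 and 36.5 CPM to 3.12, 3.10, 6.61 and 2.77 CPM, a change of -3.37 (SE 0.16, adjusted p = 2.41e-07). PITX3, a homeobox factor on the core list, and JARID2, a partner of the Polycomb complex PRC2 on the target list, had changes of -2.48 and -2.43 (adjusted p = 2.48e-06 and 2.29e-07). FGFR4, a receptor kinase and fusion target, was at 727 to 772 CPM at 2 h and at 731, 555, 544 and 556 CPM at 6 h. The 100 nM dCBP pair showed no fall, the fitted change was -0.45 (SE 0.09, adjusted p = 0.0026) and the difference from the controls was called only in 2 alternatives, 1 of them without that pair (adjusted p = 0.000219).

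The core list as a whole also had its smallest drop at 100 nM IHK-44. Its median difference of 6 h minus 2 h on the log2(CPM + 1) scale was -1.44, -1.34, -0.68 and -1.82 in the 4 pairs, against -0.02 in DMSO and 0.04 in NT. For the PAX3-FOXO1 targets the medians were -1.09, -1.06, -0.58 and -1.14. The dose dependence was not called for MYOD1 (1 uM minus 100 nM -1.66, adjusted p = 0.675), MYOG (-1.29, 0.675) or SOX8 (-1.31, 0.675), so these medians are descriptions of single pairs. EP300 and CREBBP, which encode p300 and CBP, were not called. EP300 stood at 349, 333, 284 and 270 CPM at 2 h and 283, 318, 331 and 315 CPM at 6 h, and CREBBP at 590.3, 583, 548 and 518 CPM and 639, 650.2, 659 and 622 CPM. The fitted changes were -0.08 and 0.10 (adjusted p = 0.536 and 0.215). By library size alone CREBBP was called higher.

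Of 12 tested members of the MYC and MAX network 4 fell and 4 rose. MYC went from 8.91, 6.95, 5.86 and 5.20 CPM at 2 h to 2.05, 1.47, 0.833 and 1.26 CPM at 6 h, with 63.4 to 75.6 CPM in the controls. It was thus far below the controls at 2 h in all 4 libraries and fell again, by 2.36 (SE 0.17, adjusted p = 3.07e-06). MYCN followed the same course, from 12.6, 8.57, 5.93 and 5.05 CPM to 2.69, 3.24, 3.33 and 1.02 CPM, a change of -1.72 (SE 0.21, adjusted p = 0.000135). The MAX dimerisation proteins MXD1 and MXD4, which compete with MYC, rose by 0.68 and 0.85 (adjusted p = 0.00284 and 0.000163). MXD1 was already above the controls at 2 h, with 24.2, 22.3, 26.1 and 33.0 CPM against 5.88 and 7.88 CPM, and had 41.9, 47.2, 37.8 and 54.7 CPM at 6 h.

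Ribosome biogenesis genes, which process ribosomal RNA and assemble the subunits, fell as a group. Of 28 tested members 24 fell and 0 rose, with a median of -0.42, and 14 fell against the controls. At 2 h the list stood slightly above the controls (median log2 ratio 0.16) and at 6 h below them (-0.25). RRS1, a factor of large-subunit assembly, had 39.2, 47.8, 44.1 and 44.2 CPM at 2 h and 20.3, 16.5, 17.8 and 14.2 CPM at 6 h, with 31.0 to 33.9 CPM in the controls. It went from above the controls to below them, a fall of 1.45 (SE 0.12, adjusted p = 7.7e-06). PPAN, another assembly factor, fell by 1.24 (SE 0.09, adjusted p = 4.43e-06). The ribosomal proteins themselves moved less. Of 78 tested, 12 fell and 0 rose, with a median of -0.12. The falls between the times numbered 39 without the 100 nM dCBP pair and 2 by library size alone. Against the controls 0 were called.

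Muscle differentiation genes fell in 17 of 25 cases with 0 rises (median -0.59), and 8 of them fell against the controls. CAV3, the caveolin of muscle, went from 61.8, 61.6, 75.1 and 70.6 CPM to 19.3, 13.3, 19.0 and 8.72 CPM (-2.30, SE 0.18, adjusted p = 5.39e-06). RYR1, the calcium release channel of skeletal muscle, fell by 1.69 (SE 0.12, adjusted p = 2.9e-06). At 2 h this list stood at the control level (median log2 ratio -0.01), whereas the core factors were already at -0.90. The Notch pathway fell in 10 of 18 members and rose in 2 (median -0.70), with 6 falls against the controls. HEYL, a target of Notch, fell by 1.96 and LFNG, a modifier of the receptor, by 1.98 (adjusted p = 7.25e-06 and 2.62e-05). The rises were the ligands DLL3 (0.79) and DLL4 (1.05), DLL4 being at 0.790 to 4.25 CPM in the treated libraries and not called without the 1 uM IHK-44 pair. Mesenchymal factors fell in 7 of 13 cases and rose in 1, TWIST1. That rise (0.49, adjusted p = 0.0213) was not called in 7 alternatives, among them each of the 3 fits that left out the 1 uM dCBP, 1 uM IHK-44 or 100 nM IHK-44 pair. ZEB2, a repressor of epithelial genes, fell by 2.19 (SE 0.19, adjusted p = 1.08e-05). The list of YAP and TEAD targets, which also holds the TEAD genes, YAP1 and WWTR1 themselves, fell in 8 of 16 cases with 0 rises. The falls were TEAD1, TEAD2, TEAD3, TEAD4, WWTR1, CRIM1, ARHGEF17 and CCN2. The listed targets CCN1, ANKRD1, AMOTL2, LATS2, AJUBA and F3 were not called. CCN2 had the largest fall of the list, by 1.94 (SE 0.17, adjusted p = 1.17e-05).

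Cell cycle genes did not move together. Of 20 tested G1 cyclins and CDK inhibitors, 8 fell and 4 rose (7 rose without the 100 nM dCBP pair). CCND1, the cyclin that starts G1 progression, had 66.5, 62.5, 69.4 and 71.2 CPM at 2 h and 20.1, 19.8, 18.9 and 21.3 CPM at 6 h, with 84.1 to 93.0 CPM in the controls. The 4 pairs agreed closely, and the fall was -1.85 (SE 0.08, adjusted p = 2.11e-07). CDK6, a kinase partner of CCND1, fell by 1.52 (SE 0.13, adjusted p = 9.34e-06), and the inhibitor CDKN1B rose by 0.64 (SE 0.11, adjusted p = 0.000892). The rise of CDKN1B was not called against the controls (adjusted p = 0.0584 for the difference), where 4 members of this list fell and 0 rose. DNA replication genes fell in 3 and rose in 5 of 27 cases (6 and 9 without the 100 nM dCBP pair), and 1 fell against the controls. Mitosis genes fell in 2 and rose in 9 of 27, and rose in 17 without the 100 nM dCBP pair and in 15 by library size alone. Against the controls 1 mitosis gene fell and 1 rose. The phosphatases CDC25B and CDC25C went in opposite directions, by -0.76 and 0.71 (adjusted p = 0.000109 and 0.000628).

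Of 13 tested heat shock genes 8 rose and 0 fell, the largest share of rises among the lists over the 4 pairs. The median of the list was 0.22 in the treated and 0.14 in the control pairs. Against the controls 2 members rose, HSPA1A and HSPA1B. Without the 100 nM dCBP pair 8 rose and 3 fell, and the share was below that of the mitosis genes, where 17 of 27 rose. HSPA1A and HSPA1B, the inducible HSP70 genes, are near-identical copies, so the split between them is uncertain. HSPA1A stood at 111, 137, 110 and 126 CPM at 2 h and 315, 291, 253 and 284 CPM at 6 h, and HSPA1B at 88.6, 96.6, 85.1 and 82.2 CPM and 295, 258, 198 and 263 CPM. The controls held 54.6 to 96.1 CPM of these genes at 2 h and 67.9 to 117 CPM at 6 h. Their fitted changes were 1.15 and 1.42 (SE 0.08 and 0.09, adjusted p = 3.83e-06 and 2.07e-06). Replication-dependent histone genes, which also include near-identical copies, rose in 16 and fell in 3 of 50 cases. The falls were H2AC4, H2BC3, at a mean of 0.541 CPM, and H2AC19, at 0 in nearly all treated libraries. The median of the list was 0.17 in the treated pairs and 0.28 in the controls, and 2 members fell and 0 rose against the controls.

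Of 21 lysine acetyltransferases and deacetylases, which add and remove acetyl groups, 6 fell and 3 rose, with 1 call in each direction against the controls. HDAC5, a class IIa deacetylase that binds MEF2 factors, went from 92.0, 96.4, 110 and 109 CPM to 50.5, 39.1, 29.2 and 32.0 CPM, a fall of 1.56 (SE 0.15, adjusted p = 2.32e-05). Of 14 BET and P-TEFb genes 2 fell and 3 rose, led by AFF1, a scaffold of the super elongation complex (0.99, SE 0.08, adjusted p = 1e-05). In the BCL2 family, 2 of 13 members fell (5 without the 100 nM dCBP pair) and 4 rose. BMF, a BH3-only activator of cell death, had 65.1, 52.0, 61.2 and 56.0 CPM at 2 h and 12.8, 9.81, 6.73 and 6.38 CPM at 6 h, and fell by 2.85 (SE 0.15, adjusted p = 4.82e-07). It also had 130 and 145 CPM at 2 h and 79.5 and 93.5 CPM at 6 h in DMSO and NT. The difference from the controls was -2.17 (SE 0.24, adjusted p = 0.000292). BAD and BAK1, which promote cell death, rose by 0.70 and 0.47 (adjusted p = 0.00293 and 0.00338). Neither rise was called against the controls (adjusted p = 0.149 and 0.391 for the difference). In the BCL2 family 1 member fell and 0 rose against the controls.

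Stress and metabolic lists had mixed calls. ATF4 response genes fell in 7 and rose in 3 of 22 cases, with the amino acid transporters SLC7A11 and SLC7A5 falling by 1.31 and 1.18. Hypoxia response genes fell in 6 and rose in 1 of 15, and 1 fell against the controls, near the share over all genes. The circadian clock list fell in 8 of 16 cases with 0 rises, led among called genes by RORA, a nuclear receptor of the clock, at -1.30 (SE 0.18, adjusted p = 0.000242). In this list 3 members fell against the controls, and the median was -0.27 in the treated and -0.13 in the control pairs. Cholesterol synthesis genes (4 fell and 2 rose of 20) had 0 calls against the controls. Without the 100 nM dCBP pair, 6 of them fell and 6 rose between the times, near the 26.4% and 26.0% of all genes in that fit. Genes of p53-type growth brakes (2 fell and 2 rose of 17) also had 0 calls against the controls. Their 5 falls without the 100 nM dCBP pair were near the share of all genes in that fit. CDKN1A, the CDK inhibitor p21, fell by 1.01 (adjusted p = 0.000234), with a change of -0.66 in the controls that was not called. Of 464 ZNF zinc finger genes, 121 fell and 29 rose. Without the 100 nM dCBP pair 139 fell and 60 rose, and by library size alone 95 fell and 50 rose. The list's median difference on the log2(CPM + 1) scale was -0.26 in the 100 nM dCBP pair. It was 0.03, 0.02 and -0.03 in the other treated pairs, 0.04 in DMSO and -0.10 in NT. Against the controls 24 fell and 3 rose. ZNF385D, a member with little change in the controls (0.33, not called), fell by 2.69 (SE 0.12, adjusted p = 2.11e-07).

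In the BMP and TGF-beta list the medians of the dCBP and IHK-44 pairs lay apart, which is a description with no test. Of 14 tested members 9 fell and 0 rose over the 4 pairs (median -0.73), and 2 fell against the controls. Its median on the log2(CPM + 1) scale was -0.90 and -0.57 in the dCBP pairs, -0.15 and -0.26 in the IHK-44 pairs, -0.16 in DMSO and -0.19 in NT. A direct test of IHK-44 minus dCBP called 5 genes (0.0381%), all with the IHK-44 change above that of dCBP, while 535 had an unadjusted p under 0.05 and DESeq2 called 15 (0.114%). Without the 1 uM dCBP pair the count was 3562, 1764 of them with the IHK-44 change below that of dCBP, so neither the count nor the common direction held there. It was 10 (2 below) without the 100 nM dCBP pair, 11 without the 1 uM IHK-44 pair and 5 (1 below) without the 100 nM IHK-44 pair. The 5 genes of the fit with all pairs were ID3, SNAI2, CCN1, FOXF1 and SPRY2. For the remaining genes the difference was not called, which does not show that the compounds act alike. For CCND1 it was -0.12 (SE 0.17, adjusted p = 0.955).

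Signal-induced lists had mixed calls over the 4 pairs. Of 25 immediate early genes, the first transcripts induced by growth factors, 7 fell (11 without the 100 nM dCBP pair) and 5 rose. Only 4 fell and 1 rose against the controls, and the list's median was -0.09 in the treated and -0.22 in the control pairs. ZFP36, which speeds the decay of AU-rich transcripts, rose by 1.07 (SE 0.15, adjusted p = 0.000315). Of 12 ERK feedback genes 4 fell and 1 rose. DUSP4, a phosphatase that acts on ERK, had 12.5, 12.6, 15.6 and 14.8 CPM at 2 h and 9.42, 8.63, 6.85 and 9.56 CPM at 6 h, with 31.0 to 38.6 CPM in the controls, and fell by 0.79 (SE 0.13, adjusted p = 0.000945). It was below the controls at both times.

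ID3, an inhibitor of bHLH factors induced by BMP signalling, went down from 94.6 and 95.9 CPM to 31.5 and 42.8 CPM under dCBP and up from 51.1 and 15.7 CPM to 92.2 and 35.4 CPM under IHK-44 (100 nM, then 1 uM). DMSO and NT had 222 and 216 CPM at 2 h and 197 and 213 CPM at 6 h. At 2 h IHK-44 was thus the lower of the 2 compounds at each dose, and the fitted changes were -1.47 for dCBP and 0.90 for IHK-44, a difference of 2.37 (SE 0.20, adjusted p = 0.0025). SNAI2, a repressor of epithelial genes, fell from 35.9 and 32.5 CPM to 11.1 and 15.5 CPM under dCBP and rose from 49.7 and 11.7 CPM to 88.8 and 23.8 CPM under IHK-44, with 119 and 123 CPM at 2 h in the controls. The 100 nM IHK-44 library of 6 h was near the controls and that of 1 uM was not. The difference between compounds was 2.29 (SE 0.22, adjusted p = 0.00528). CCN1, a secreted matrix protein and YAP target, went from 96.5 and 108 CPM to 54.9 and 52.3 CPM under dCBP and from 142 and 54.7 CPM to 232 and 131 CPM under IHK-44, a difference of 1.90 (SE 0.21, adjusted p = 0.013). For ID3, SNAI2 and CCN1 the difference was called in each fit that left out 1 pair.

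**Figure D5:**
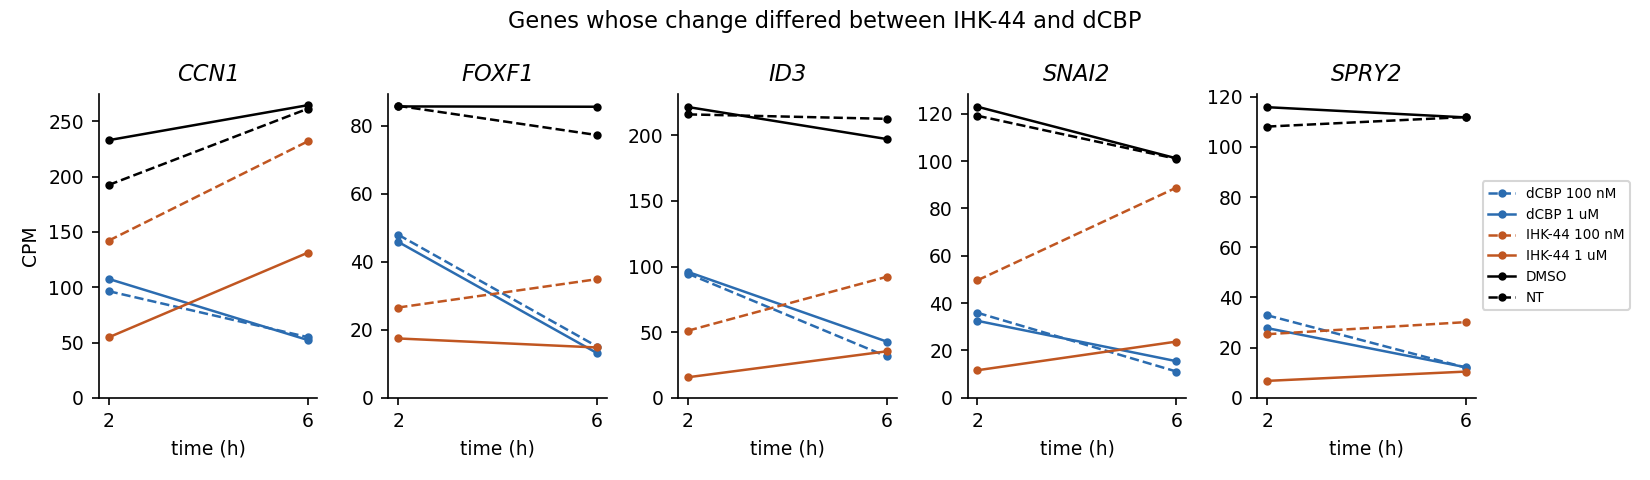
CPM at 2 h and 6 h of the 5 genes whose change differed between the compounds, 1 line per compound and dose (blue dCBP, orange IHK-44, dashed 100 nM, solid 1 uM) and black for DMSO (solid) and NT (dashed). Both dCBP lines go down in every panel, both IHK-44 lines go up for CCN1, ID3, SNAI2 and SPRY2, and for FOXF1 they go in opposite directions.

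FOXF1, a forkhead factor of mesenchyme and a listed PAX3-FOXO1 target, fell from 47.9 and 45.8 CPM to 15.1 and 13.1 CPM under dCBP. Under IHK-44 it had 26.5 and 17.5 CPM at 2 h and 34.9 and 14.8 CPM at 6 h, so the doses went opposite ways. The difference between compounds was 1.83 (SE 0.24, adjusted p = 0.0301) and was not called without the 100 nM IHK-44 pair (adjusted p = 0.225). SPRY2, a feedback inhibitor of receptor kinase signalling, fell from 32.9 and 27.8 CPM to 12 and 12.2 CPM under dCBP and had 25.4 and 6.76 CPM, then 30.2 and 10.5 CPM, under IHK-44. The difference was 1.73 (SE 0.21, adjusted p = 0.0248), not called without the 1 uM (adjusted p = 0.12) or the 100 nM IHK-44 pair (adjusted p = 0.0796).

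The dose comparison, 1 uM minus 100 nM over both compounds, called 1 gene (0.00762%), with 724 genes at an unadjusted p under 0.05 and 3 called by DESeq2 (0.0229%). The count was 3710 without the 100 nM IHK-44 pair, 73 without the 100 nM dCBP pair, and 0 without the 1 uM pair of either compound. The gene called with all pairs was SFT2D3, a membrane traffic gene. It had 12.3 and 13.9 CPM at 100 nM and 9.72 and 15.9 CPM at 1 uM at 2 h (dCBP, then IHK-44), and 4.33 and 3.83 CPM, then 0 and 0.220 CPM, at 6 h. The call was lost by library size alone (adjusted p = 0.0588) and without the 1 uM pair of either compound (adjusted p = 0.426 for dCBP and 0.577 for IHK-44). No fold change is given, since 1 library is at 0.

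Reads falling outside the coding genes took shares that overlapped between the times. Their share averaged 8.72% in the treated libraries at 2 h and 9.61% at 6 h, a difference of 0.881 percentage points ± 1.67 (SD, n = 4 pairs), with p = 0.375 in a two-sided exact sign-flip permutation test in which 4 pairs cannot give a p under 1 in 8. All 8 treated libraries (8.20% to 11.3%) lay above the 4 control libraries (5.63% to 6.43%).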

How the data were processed

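RNA-seq of RH4 cells was analysed in 12 libraries: dCBP and IHK-44 at 100 nM and 1000 nM, DMSO and NT, each at 2 h and 6 h. Each of the authors' files lists 18980 coding genes by symbol for 1 library, per the file headers. The expected counts deposited by the authors are estimated reads per gene. The TPM and FPKM values deposited by the authors are scaled over all genes quantified, not only coding rows. The CPM values deposited by the authors are expected counts scaled to one total over the coding rows. The submitters' processing notes name STAR 2.5.3a and RSEM 1.3.3 with no role, and the build used for RNA-seq is not given in the sources used here. How reads shared by near-identical genes were split, and whether strand was used, is not stated.

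Expected counts were rounded and fitted with edgeR 4.0.16 (R 4.3.3): TMM scaling, filterByExpr, glmQLFit and glmQLFTest. The design had a block for each of the 6 pairs (compound and dose, DMSO, NT), which comes from the labels, and a 6 h term each for treated and control pairs. Its residual degrees of freedom were 4, and edgeR's common coefficient of variation was 0.110. Further fits had 6 h terms by compound or by dose. The SE is the log2 change divided by the square root of F. Library totals ran from 13466631 to 16799327 counts, so a gene at 1 CPM rests on few reads. Alternatives used limma 3.58.1, DESeq2 1.42.0, other scalings and filters, and left out each pair in turn.

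The members and gene lists were chosen with earlier results of these data known. Named genes were MYC, MYCN, MYOD1, MYOG, PAX3, FOXO1, SOX8, FGFR4, EP300 and CREBBP. To these were added the 12 largest falls and rises with the same sign in 4 of 4 pairs and a mean of at least 5 CPM, the 6 largest each against the controls, the 4 largest in the control, compound and dose terms, and in each list the 2 largest falls and rises. Genes named beside a count of 5 or fewer were chosen after their values were seen. The list of mitochondrially encoded genes was not analysed here, as 0 of its 13 members are in the tables used.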

Additional observations from a re-analysis of the deposited data

Results flagged for a closer look

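The change from 2 h to 6 h differed between the treated and the control pairs for 1374 genes by the test of the difference itself. It differed between IHK-44 and dCBP for 5 genes (ID3, SNAI2, CCN1, FOXF1 and SPRY2) and between 1 uM and 100 nM for 1 gene (SFT2D3), each by the test of that difference. Reads outside the coding rows, which no test across genes used, made up a mean of 8.725% of the reads in the treated libraries at 2 h and 9.606% at 6 h, above the 5.63% to 6.43% of the control libraries. What these reads are was not tested.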

How the results depend on the processing

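The 5264 genes called between the times became 3162 with limma on log2(TPM + 1), 2683 with the 100 nM pairs alone and 1174 with a 2-fold minimum. Leaving out 1 pair gave 3692 to 6844. The control count of 1 became 4 with no filter, 11 with DESeq2, 0 with limma on log2(CPM + 0.1) or log2(TPM + 1), 10 with no replicate block, 2 with all 20 libraries, 224 with the JQAD pairs added and 0 to 170 without 1 pair. The difference from controls (1374 genes) gave 328 with limma on TPM, 2913 with the JQAD pairs, 681 with a 2-fold minimum and 391 to 3468 without 1 pair. Without the replicate block, where the pairs come from the labels, 5992 genes were called between the times and 1933 in the difference. The count between compounds (5) was 15 with DESeq2 and 5 to 3562 without 1 pair. The count between doses (1) was 0 by library size alone, 3 with DESeq2 and 0 to 3710 without 1 pair. The dCBP count (3213) ran from 2398 to 6081 and the IHK-44 count (3210) from 951 to 6186 without 1 pair, and IHK-44 fitted without the other compound gave 6177. Where a compound or dose kept 1 pair, that pair was assumed to vary like the others. Without the 100 nM dCBP pair the common coefficient of variation was 0.0642. The cause of these shifts was not tested.

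Among the 163 fitted values of single genes, 2762 alternatives kept their side of the threshold, 139 lost the call and 57 gained it. A further 2 were called with the sign reversed: RPS9 at -0.154 without the 100 nM dCBP pair (up to 0.178 without another pair), and H3C14 at -0.354 with the 1000 nM pairs alone. Neither gene was called over the 4 pairs, but both reversed values were (edgeR adjusted p = 0.0407 and 0.0222). Values not called could change sign and still count among the 2762, as RPS9 did with the 1000 nM pairs alone (-0.165). The median level of called genes at 2 h against the controls kept its sign under every alternative run (-0.127 to -0.101 for falls and 0.140 to 0.162 for rises). Limits are 1 library per condition, 1 cell line, 2 control pairs, and a scaling on which the balance of falls and rises depends. Genes near 1 CPM carry a large counting error.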
